A study of Mus musculus with 6 samples.

Results

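The transcripts of 10 amino acid transporter subunits of the plasma membrane were examined in 4T1 cells, a mouse mammary carcinoma line. The members were the rows of the deposited table of raw counts per gene with the symbols Slc7a11, Slc7a5, Slc3a2, Slc7a1, Slc7a3, Slc1a5, Slc1a4, Slc38a2, Slc38a1 and Slc6a9. All 10 were found among 48587 genes listed. The METTL7A1 group (3 libraries) came from cells stably transfected with full-length Mettl7a1 cDNA, in the vector pBICEP-CMV-2 (CMV promoter), and the control group (3 libraries) from mock 4T1 cells. In the study's immunoblots of such lines the mock cells held the empty vector and METTL7A1 carried a FLAG tag. The labels give DMEM/F12 with 10% FBS and selection in 350 μg/ml G418 for all libraries, call them biological triplicates of each group, repeat the same transfection text for the mock libraries, and do not say whether the lines were pools or clones. A group difference can therefore not be told apart from a difference between the transfected lines. The question behind the comparison was how the putative methyltransferase METTL7A1 changes the transcriptome of tumorigenic cells.

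Amino acids cross the plasma membrane through solute carriers that differ in substrate and in coupling. SLC7A5 and SLC7A11 are light chains that reach the cell surface bound by a disulfide bridge to the glycoprotein heavy chain SLC3A2, and exchange large neutral amino acids and cystine for glutamate, respectively. SLC7A1 and SLC7A3 carry cationic amino acids without a heavy chain. SLC1A5 and SLC1A4 exchange small neutral amino acids with sodium, SLC38A2 and SLC38A1 take up neutral amino acids such as glutamine together with sodium, and SLC6A9 takes up glycine. In proliferating tumour cells these carriers feed protein synthesis, the growth-controlling kinase complex mTORC1 and, through cystine, glutathione. Several of the genes are textbook targets of ATF4, the transcription factor of the amino acid response and the integrated stress response, which binds with C/EBP partners to a composite element termed CARE; Slc7a11 is in addition a target of NRF2, which binds the antioxidant response element (ARE).

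Promoter sequences of the genes with a large and a smaller rise are shown first, because most members rose and the letters before their start sites could be searched. RefSeq start sites of build GRCm38.p6 were at hand for 6 of the 10 members (9 windows). The CARE letters TGATGNAA and the ARE letters TGACNNNGC were searched on both strands in the 250 bases before each start. The windows below run 5′ to 3′ in the direction of transcription up to the base before the start, and capitals mark the matches.
Slc7a11, chr3:50443614-50443863, minus strand: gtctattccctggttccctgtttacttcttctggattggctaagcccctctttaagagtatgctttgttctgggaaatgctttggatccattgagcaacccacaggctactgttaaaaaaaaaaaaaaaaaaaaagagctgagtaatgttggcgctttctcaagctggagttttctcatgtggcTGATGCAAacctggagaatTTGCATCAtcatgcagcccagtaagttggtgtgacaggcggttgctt
Slc1a4, chr11:20332714-20332963, minus strand: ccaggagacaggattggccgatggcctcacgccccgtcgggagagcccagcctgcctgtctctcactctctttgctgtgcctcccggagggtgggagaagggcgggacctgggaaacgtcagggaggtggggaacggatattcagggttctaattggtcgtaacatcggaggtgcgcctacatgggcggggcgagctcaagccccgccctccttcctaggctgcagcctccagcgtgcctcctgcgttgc
Slc3a2, chr19:8713898-8714147, minus strand: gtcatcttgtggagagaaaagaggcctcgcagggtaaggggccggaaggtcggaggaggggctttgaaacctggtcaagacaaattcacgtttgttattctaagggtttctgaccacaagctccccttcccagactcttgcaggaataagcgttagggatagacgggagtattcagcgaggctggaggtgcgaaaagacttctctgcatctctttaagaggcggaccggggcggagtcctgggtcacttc
Slc7a11 held 2 CARE matches, TGATGCAA at -66 to -59 and its reverse complement TTGCATCA at -47 to -40, counted back from -1 at the last base before the start. Over all 32851 windows of this length, 3.45% held at least 1 CARE match and 0.0396% held 2 or more. Over the 11398 windows of genes tested these shares were 1.85% and 0.0351%. The class of 2 or more was counted for CARE alone and is the one that the Slc7a11 window falls in. Its share is therefore a description and not a test. No other member window held the CARE letters. The ARE letters, found in 10.2% of all windows and 11.9% of those of genes tested, were present in windows of Slc7a1, Slc38a2 and Slc6a9. Slc7a1 and Slc6a9 each had more than 1 window, not all with a match, while the shares count single windows. The matched windows of Slc6a9 end at 117849349 and 117855546, inside the gene of the deposited table. The Slc7a11 window held no ARE letters. The windows of Slc1a4 and Slc3a2 held neither, and the RefSeq start of Slc3a2 lies inside the longer gene of the deposited table (chromosome 19, 8706882 to 8723369). A match is a string of letters and not a binding site, and the search covered no introns, where such elements also occur. Slc7a5, Slc7a3, Slc1a5 and Slc38a1 had no window.

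Depth ranged from 18386780 to 28459338 counts per library. The transfected gene Mettl7a1 had 6355 to 11358 counts in METTL7A1 libraries and 29 to 30 in mock libraries, and every library followed its label. Of the mammary epithelial markers Epcam, Krt8, Krt18, Krt19 and Cdh1, none was called as different, and their summed abundance was 1452 to 1720 cpm (the count over the TMM-scaled library size) in METTL7A1 and 1413 to 1733 cpm in mock libraries. The 9 markers of leukocytes, endothelial cells, fibroblasts, adipocytes and smooth muscle summed to at most 1.24 cpm, with Cd3e and Lum at 0 counts. AY036118, a gene of the ribosomal repeat, took 0.502% to 4.53% of the counts in METTL7A1 and 0.966% to 13.1% in mock libraries, the highest in mock replicate 1. In bulk RNA, fewer cells of a kind and less RNA per cell cannot be told apart.

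Of the 10 transporters, 8 rose in METTL7A1 cells and none fell at an adjusted p under 0.05 (edgeR quasi-likelihood test, Benjamini-Hochberg adjusted over all 13166 genes tested). Among all genes tested 21.1% rose, 21% fell and 42.1% were called in either direction. All 10 passed the abundance filter of 1 cpm in 3 libraries; Slc7a3 did so in exactly 3 and the other members in all 6. The median log2 fold change was 0.38 over the members and -0.03 over all genes tested. The rises were of unequal size, from 1.20-fold for Slc38a1 to 8.65-fold for Slc7a11. At the thresholds of the study (adjusted p under 0.01 and log2 fold change over 1.5 in either direction) 2 members were called, Slc7a11 and Slc6a9, where 2.48% of all genes were. The METTL7A1 and mock libraries did not overlap in 7 members, against 51.6% of all genes. The number of members called fell to 5 without METTL7A1 replicate 2, where Slc7a5, Slc7a1 and Slc38a1 were no longer called. Over all genes the share called in that fit was 29.1%, with 14.7% higher.

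**Figure D1:**
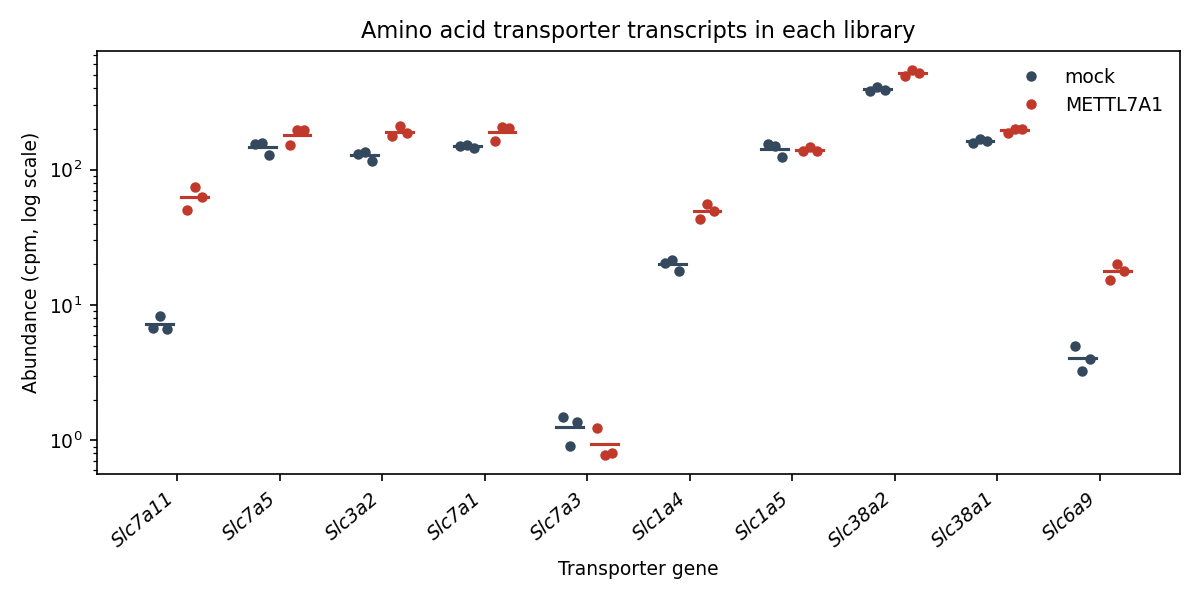
Abundance of each transporter transcript (cpm on TMM-scaled library sizes, log axis) in the 3 mock and 3 METTL7A1 libraries, with bars at the group means. Slc7a11 (50.5 to 75.1 against 6.68 to 8.34 cpm), Slc6a9 and Slc1a4 stand clearly apart between groups, while Slc7a5, Slc7a3 and Slc1a5 overlap.

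Slc7a11 (chromosome 3, 49892526 to 50443614, mm10), the cystine/glutamate exchanger xCT, showed the largest change of the 10. It was measured at 50.5, 75.1 and 62.7 cpm in METTL7A1 replicates 1 to 3 and at 6.72, 8.34 and 6.68 cpm in mock replicates 1 to 3. Every METTL7A1 library lay far above every mock library. The mean was 62.8 ± 12.3 cpm in METTL7A1 and 7.25 ± 0.943 cpm in mock cells (SD, n = 3 each), or 3.11 ± 0.15 in log2 fold change (± standard error, SE; edgeR adjusted p = 1.31e-07). By p value it ranked 28 of 13166 genes. Its promoter window carried the paired CARE letters shown above, while the windows of Slc6a9 and Slc1a4, which also rose, carried none. Whether these letters bear on the rise was not tested.

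A second annotated gene allowed the same locus to be read without its exons. Gm37498 (chromosome 3, 50400282 to 50404283) is a stretch of 4002 bases on the same strand, inside an intron of Slc7a11 between exons that end at 50384167 and start at 50417988, and overlaps none of its exons. It was chosen after its values were seen. It drew 60, 105 and 69 counts in the METTL7A1 libraries and 1, 5 and 8 in the mock libraries, in replicate order. All METTL7A1 libraries were above all mock libraries, and the log2 fold change was 3.92 ± 0.35 (SE, edgeR adjusted p = 1.04e-05). The libraries were made from total RNA, which also holds unspliced transcripts. Whether the counts come from Slc7a11 precursor RNA or from a separate transcript was not tested. The next tested gene on the chromosome, Pcdh18, lies 135210 bases away and changed by -4.75 ± 0.38 (log2, SE; edgeR adjusted p = 4.61e-06), opposite in sign to Slc7a11.

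**Figure D2:**
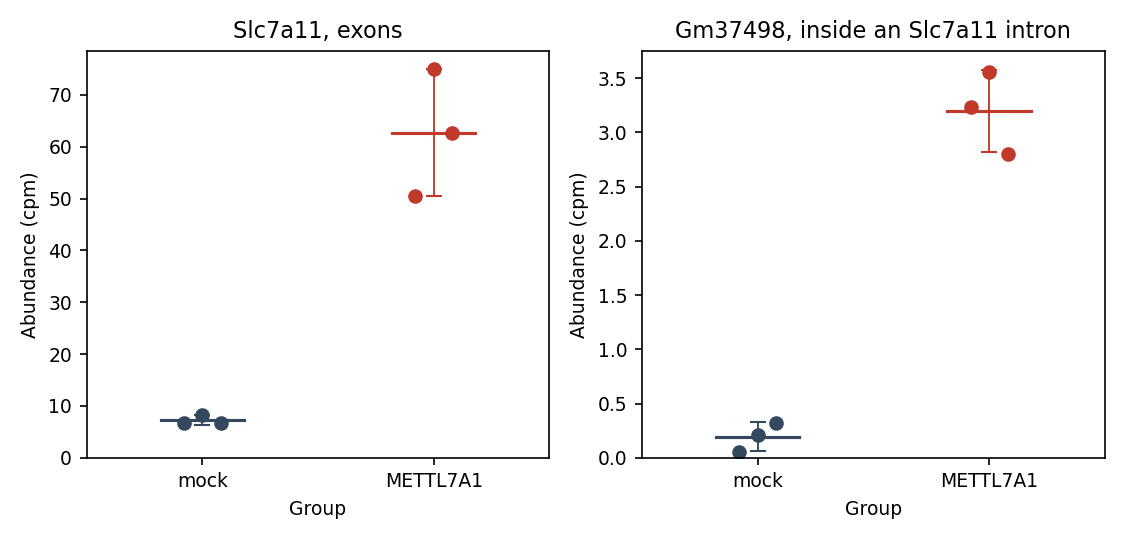
Abundance (cpm, linear axes from 0) of Slc7a11 over its exons and of Gm37498, which lies inside an Slc7a11 intron, in each library, with group means and SD bars (n = 3 each). Both were higher in all METTL7A1 libraries, with means of 62.8 against 7.25 cpm and 3.20 against 0.194 cpm.

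The heavy chain Slc3a2 (chromosome 19), which carries SLC7A5 and SLC7A11 to the cell surface, was at 177, 210 and 185 cpm in METTL7A1 replicates 1 to 3 and at 131, 135 and 117 cpm in mock replicates 1 to 3. The groups did not overlap. It rose 1.49-fold, 0.58 ± 0.09 in log2 fold change (SE, edgeR adjusted p = 0.000342), and the call held whichever library was left out. Its light chain Slc7a5 (chromosome 8, 121881150 to 121907694), the leucine transporter LAT1, was at 151, 197 and 197 cpm in METTL7A1 replicates 1 to 3 and at 154, 158 and 129 cpm in mock replicates 1 to 3. Here METTL7A1 replicate 1 lay below mock replicates 1 and 2, so the groups overlapped. Its change of 0.31 ± 0.11 (log2, SE) had an edgeR adjusted p of 0.0468, just under the threshold. This call was lost in 4 of the 6 fits that left out a library, those without METTL7A1 replicate 2 or 3 or mock replicate 1 or 3. The log2 fold change in those fits ranged from 0.23 to 0.36. The call was also lost with limma's voom and with replicate number as a block (edgeR adjusted p = 0.0718).

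Because a light chain needs SLC3A2, the levels of the 6 light chain genes of this complex were set against it per kilobase of annotated exon. In mock cells Slc7a5 and Slc7a6, a second leucine and arginine exchanger, made up 54.9% ± 1.82 and 42.5% ± 1.62 of light chain transcripts (SD, n = 3). Slc7a7, the y+LAT1 light chain, whose exons overlap Oxa1l on the opposite strand (up to 1056 counts), held 1.57% ± 0.175 and Slc7a11 0.968% ± 0.0823, while Slc7a8 had at most 1 count and Slc7a10 0 counts in any library. In METTL7A1 cells the share of Slc7a11 was 7.25% ± 0.824, that of Slc7a5 58.9% ± 2.89 and that of Slc7a6 32.5% ± 3.28 (SD, n = 3). Slc7a11 thus took up a larger part of the light chain pool in every METTL7A1 library (6.63% to 8.19%) than in any mock library (0.879% to 1.04%). Exon length here is the whole annotated length, 9848 bases for Slc7a11, so a level per kilobase is too low for a gene whose annotated exons are not all used.

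Relative to the heavy chain, the summed light chains were lower in every METTL7A1 library than in any mock library. The ratio of the 6 light chains to Slc3a2 per kilobase was 1.32, 1.34 and 1.49 in METTL7A1 replicates 1 to 3 and 1.79, 1.81 and 1.79 in mock replicates 1 to 3. The log2 difference was -0.38 per kilobase and -0.24 on counts without length, so its size depends on the annotated exons. The ratio of Slc7a5 to Slc3a2 was 0.818 ± 0.0889 in METTL7A1 and 0.988 ± 0.0371 in mock cells, and that of Slc7a11 to Slc3a2 was 0.10 ± 0.0114 and 0.0174 ± 0.00156 (SD, n = 3 each). The groups did not overlap in any of the 3 ratios. Each gave p = 0.1 in a two-sided exact permutation test (0.1 after Benjamini-Hochberg adjustment over the 3), the smallest p that 3 against 3 libraries allow.

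**Figure D3:**
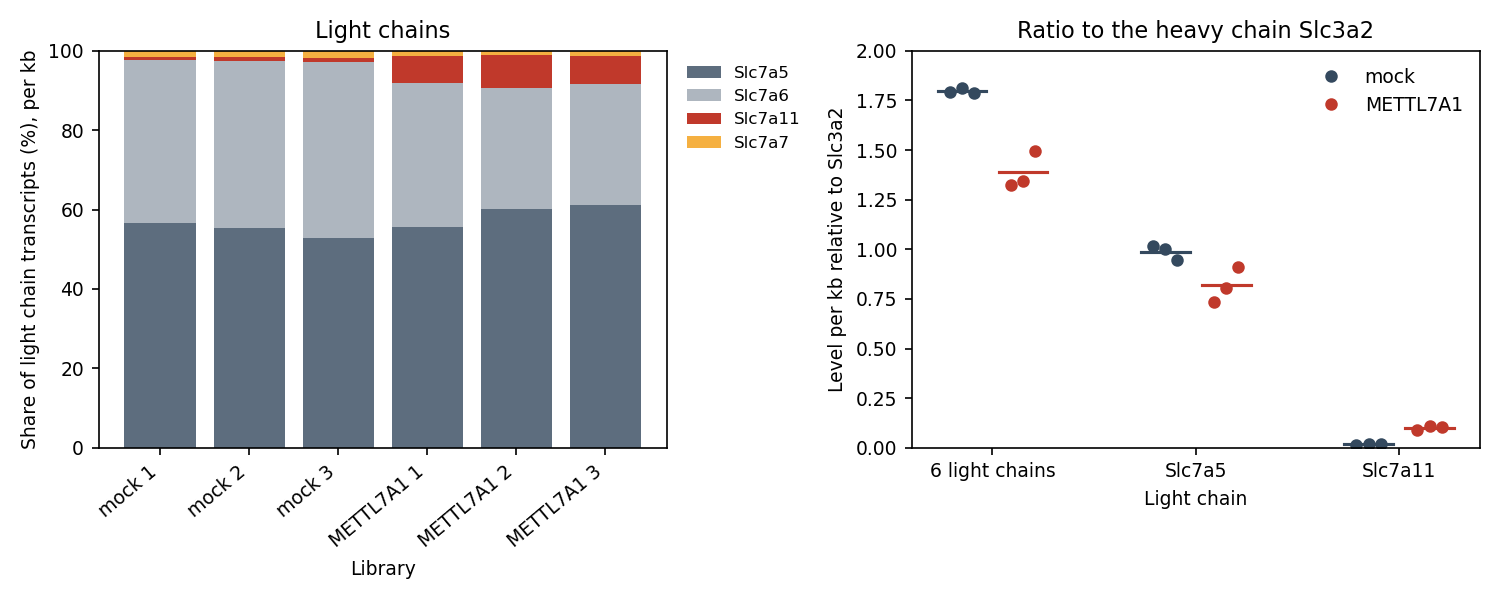
Left, share of each light chain in the summed light chain transcripts (%, counts per kilobase of exon) in each library, with Slc7a8 and Slc7a10 too low to be seen. Right, level per kilobase relative to Slc3a2 in each library, with bars at the group means: the sum of 6 light chains had a mean of 1.80 in mock and 1.39 in METTL7A1 cells without overlap, while Slc7a11 went from 0.0174 to 0.10.

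The cationic amino acid transporters differed in level and in outcome. Slc7a1 (chromosome 5), the widely expressed arginine and lysine carrier CAT1, was at 162, 207 and 204 cpm in METTL7A1 replicates 1 to 3 and at 149, 154 and 145 cpm in mock replicates 1 to 3. All METTL7A1 libraries were above all mock libraries, replicate 1 by a small margin. The log2 fold change was 0.36 ± 0.09 (SE, edgeR adjusted p = 0.00996), and the call was lost without METTL7A1 replicate 2 (0.30, edgeR adjusted p = 0.0673). Slc7a1 lies in a part of chromosome 5 where its 40 nearest abundant neighbours had a median of -0.40 (log2), and relative to them its rise was 0.76 (SE 0.09, edgeR adjusted p = 0.000125). Slc7a3 (chromosome X), the related carrier CAT3 of brain and placenta, had few counts, 23, 23 and 20 counts in the METTL7A1 libraries and 27, 22 and 34 in the mock libraries, in replicate order. The groups overlapped, and a difference was not detectable at this depth, with a log2 value of -0.43 ± 0.29 (SE, edgeR adjusted p = 0.272).

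The pair of SLC1 exchangers gave unlike values. Slc1a4 (chromosome 11, 20302180 to 20332713), the exchanger ASCT1 for alanine, serine, cysteine and threonine, was at 43.2, 55.4 and 49.8 cpm in METTL7A1 replicates 1 to 3 and at 20.5, 21.4 and 18 cpm in mock replicates 1 to 3. The groups were far apart, and it rose 2.48-fold (log2 fold change 1.31, SE 0.10, edgeR adjusted p = 4.32e-06). Its fold change was under the limit of the study, and its log2 value lay between 1.22 and 1.41 under all alternatives. Slc1a5 (chromosome 7), the glutamine exchanger ASCT2, was at 137, 146 and 137 cpm in METTL7A1 replicates 1 to 3 and at 155, 151 and 124 cpm in mock replicates 1 to 3. The METTL7A1 libraries fell within the range of the mock libraries. The log2 fold change was -0.03 ± 0.09 (SE, edgeR adjusted p = 0.797), and its sign changed between alternatives.

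Slc38a2 and Slc38a1 are neighbours on chromosome 15, 44481 bases apart, and encode the sodium-coupled glutamine and alanine carriers SNAT2 and SNAT1. Slc38a2 (96687394 to 96699698) was the most abundant member, at 495, 546 and 519 cpm in METTL7A1 replicates 1 to 3 and at 382, 407 and 389 cpm in mock replicates 1 to 3. Slc38a1 (96571418 to 96642913) was at 187, 198 and 200 cpm in METTL7A1 replicates 1 to 3 and at 157, 168 and 163 cpm in mock replicates 1 to 3. In both genes the groups did not overlap. The log2 fold changes were 0.40 (SE 0.08, edgeR adjusted p = 0.00161) and 0.26 (SE 0.07, edgeR adjusted p = 0.00985). The call of Slc38a1 was lost without METTL7A1 replicate 2 (edgeR adjusted p = 0.0597).

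Genes around these carriers were higher as well. Nearby values varied, with 0.25 for Scaf11, 0.39 for Arid2, 0.39 for Ano6, 0.95 for Pced1b and 1.89 for Amigo2 (log2). Among the 40 nearest abundant genes the median log2 value was 0.28 for each of the 2 carriers. Relative to this median Slc38a2 was at 0.13 (edgeR adjusted p = 0.236) and Slc38a1 at -0.02 (edgeR adjusted p = 0.854), and neither was called. The third gene of the cluster, Slc38a4, had at most 1 count in any library. For Slc7a11, Slc3a2, Slc1a4 and Slc6a9 the neighbours lay between -0.08 and -0.03, and their fold changes relative to the neighbours were 3.18, 0.63, 1.34 and 2.22. Slc7a5 stood at 0.48 relative to its neighbours (SE 0.11, edgeR adjusted p = 0.00766). Counted relative to neighbours, 6 of the 10 members were called as higher, against 18.1% of all genes on the same scale.

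**Figure D4:**
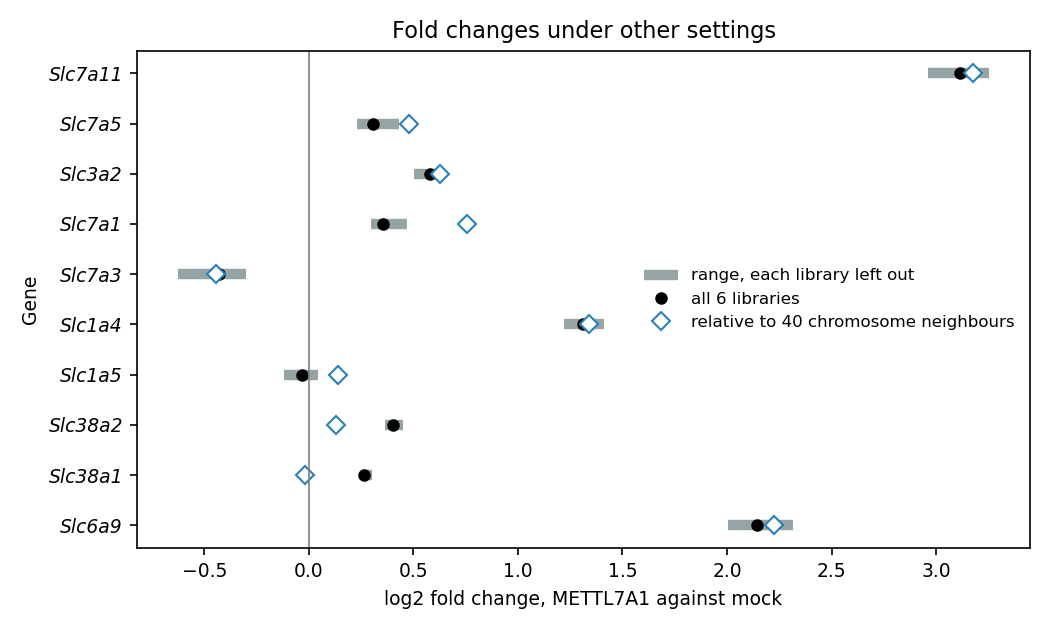
Log2 fold change of each transporter between METTL7A1 and mock cells with all 6 libraries (points), its range over the fits that leave out a library (grey bars) and its value relative to the 40 nearest abundant genes on the chromosome (open diamonds). Slc38a2 and Slc38a1 move to 0.13 and -0.02 relative to their neighbours and Slc7a1 to 0.76, while Slc7a11, Slc6a9 and Slc1a4 stay within 0.1 of their value.

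Slc6a9 (chromosome 4, 117834506 to 117869305), the glycine transporter GLYT1, was among the least abundant members and had the second largest change. It was at 15.4, 20.2 and 17.8 cpm in METTL7A1 replicates 1 to 3 and at 4.97, 3.26 and 3.98 cpm in mock replicates 1 to 3, with 79 to 99 counts per mock library. The lowest METTL7A1 library was above the highest mock library by a wide margin. It rose 4.43-fold, 2.15 ± 0.16 in log2 fold change (SE, edgeR adjusted p = 2.70e-06), and passed the thresholds of the study under every alternative tried. Exons of Slc6a9 overlap Ccdc24 on the opposite strand, which had at most 93 counts in any library, and the sources used here do not state whether counting used strand.

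The order of the members by level per kilobase of exon was close in both groups but not the same. Slc38a2 was highest in both, at 112 ± 5.55 cpm per kilobase in METTL7A1 and 84.9 ± 2.77 in mock cells, and Slc7a3 was lowest, at 0.324 ± 0.0884 and 0.430 ± 0.104 (SD, n = 3 each). In mock cells Slc1a5, Slc3a2 and Slc7a5 followed, at 51.9, 42.3 and 41.8 cpm per kilobase. Neighbours in that order overlapped between libraries, so their order was not resolved. In METTL7A1 cells Slc3a2 came second, at 63.1 cpm per kilobase and above every library of Slc7a5 (51.7) and Slc1a5 (50.6), which overlapped. Slc7a11 and Slc6a9 changed places, from 0.736 and 1.11 cpm per kilobase in mock to 6.37 and 4.84 in METTL7A1 cells. The latter values overlapped between libraries.

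The members contributed unequally to the summed difference. Summed over the 10 genes, the level was 352 ± 26.6 cpm per kilobase in METTL7A1 and 268 ± 15.8 in mock cells (SD, n = 3 each), a difference of 83.4. Slc38a2 accounted for 33.0% of this difference and Slc3a2 for 25.0%, whereas Slc7a11 made up 6.76% and Slc6a9 4.47%. These shares depend on exon length: of the summed difference of 394 cpm, without length, Slc38a2 made up 32.3%, Slc3a2 16%, Slc7a11 14.1% and Slc6a9 3.48%. Among the METTL7A1 libraries replicate 1 was the lowest in all 8 called members, and replicate 2 was the highest in 6 and replicate 3 in 2. Replicate 1 was also the lowest in the median of the amino acid response genes described next, at a log2 ratio to the mock mean of 0.91 against 1.22 and 1.02 in replicates 2 and 3. It had the lowest depth and the lowest share of AY036118 of the 3, and their part in this order was not tested.

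ATF4, the kinases that act upstream of it and its targets were read beside the transporters. Of 16 such genes, 14 rose and 1 fell, against 21.1% and 21% of all genes, the median log2 value being 1.12. Atf4 itself rose (log2 fold change 0.83, SE 0.08, edgeR adjusted p = 2.34e-05) and stood at 0.61 relative to its neighbours. The kinases, which sense different stresses, were not alike. Eif2ak3 (0.82), the kinase of endoplasmic reticulum stress, rose, as did the amino acid sensor Eif2ak4 (0.35), whose value relative to its neighbours was 0.03 and not called. The haem sensor Eif2ak1 fell (-0.32) but was not called relative to neighbours or without METTL7A1 replicate 2, and Eif2ak2, the sensor of double-stranded RNA, was not called (0.05). Exons of Eif2ak1 overlap Aimp2 on the opposite strand, which had up to 1258 counts. Atf4 and the kinases are named outside the naming rule, after their values were seen. The called genes of the list with the smallest p were Chac1, which degrades glutathione (log2 fold change 3.59, SE 0.17), the stress transcription factors Atf3 (1.82, SE 0.10), Ddit3 (2.40, SE 0.14) and Nupr1 (1.85, SE 0.12), the mTORC1 inhibitor Ddit4 (2.48, SE 0.14) and asparagine synthetase Asns (1.46, SE 0.10). All 6 had an edgeR adjusted p of at most 1.33e-06. They stayed called relative to neighbours, where Ddit3 stood at 1.87, Ddit4 at 1.97, Chac1 at 3.29 and Asns at 1.22. Ddit3 overlaps exons of Mars on the opposite strand, which had up to 6092 counts. The promoter window of Chac1 held the CARE letters in the orientation TTGCATCA, and that of Asns held TGATGAAA. The windows of Ddit3 and of Trib3, which is named outside the naming rule, were searched as well and held no match. For the other genes of the list, Atf3, Nupr1 and Ddit4 among them, no window was read singly. The list overlaps with what earlier analyses of these libraries had shown and is given as context for the transporters.

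Transcripts of glutathione and thioredoxin metabolism, listed here beside the cystine carrier xCT, moved in both directions. Of 8 such genes 5 rose and 1 fell, with Chac1 among the former, against 21.1% and 21% of all genes. Ggct, which acts on the γ-glutamyl products of glutathione breakdown, fell to 7.68 ± 0.118 cpm in METTL7A1 from 17.9 ± 0.487 cpm in mock libraries (SD, n = 3 each), that is -1.22 ± 0.10 in log2 fold change (SE, edgeR adjusted p = 4.10e-06). Txnrd1 (0.53, SE 0.07), Gpx4 (0.48, SE 0.09), Gss (0.41, SE 0.10) and Gsr (0.27, SE 0.09) rose, but lay in regions whose neighbours had medians of 0.21 to 0.41 and were not called relative to those neighbours. Gsr was also not called in 4 of the 6 fits that left out a library or with the replicate block, and Gss overlaps Acss2 on the opposite strand (up to 779 counts). Gclc and Gclm, the subunits of the rate-limiting enzyme of glutathione synthesis, are named although outside the naming rule and were not called (-0.14, SE 0.07, and 0.14, SE 0.08).

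The remaining amino acid transporters of the plasma membrane gave calls in both directions. Of 21 listed genes 16 did not pass the abundance filter, 15 of them with at most 16 counts in any library, and were left out of the comparison. In the fit without that filter Slc1a2 (2.65) was called as higher and Slc6a15 (-5.29) and Slc38a3 (-2.21) as lower (log2). These are named outside the naming rule, and each had at most 16 counts in any library. Of the 5 tested, 1 rose and 3 fell, against 21.1% and 21% of all genes. Slc16a10, the aromatic amino acid carrier TAT1, went from 8.65 ± 1.39 to 5.16 ± 0.618 cpm (SD, n = 3 each; log2 fold change -0.75, SE 0.16, edgeR adjusted p = 0.00299), and was not called relative to its neighbours on chromosome 10 (-0.25). The taurine transporter Slc6a6 (-0.23, SE 0.08) and the light chain Slc7a6 (-0.19, SE 0.07) fell, and Slc43a2, a carrier of large neutral amino acids (0.32, SE 0.11), rose. The calls of Slc6a6, Slc7a6 and Slc43a2 were each lost with the replicate block, without an abundance filter and in several fits that left out a library. With a library left out, the number of calls in this list ranged from 1 to 3. Relative to neighbours Slc6a6 (-0.15) and Slc7a6 (0.06, with the opposite sign) were not called, whereas Slc43a2 (0.40) was. Slc7a7 was not called in the comparison of all libraries (-0.09, SE 0.18).

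Carriers of inner membranes were read in the same way. Of 8 lysosomal amino acid transporters 7 were tested and 2 rose, the cystine exporter Ctns and Slc38a7, a glutamine and asparagine exporter, a share of 28.6% near the 21.1% of all genes. Ctns (chromosome 11) went from 5.64 ± 0.719 to 14.1 ± 1.59 cpm (SD, n = 3 each), 1.33 ± 0.13 in log2 fold change (SE, edgeR adjusted p = 2.45e-05), and Slc38a7 had a log2 fold change of 0.49 (SE 0.12). Of 11 mitochondrial carriers 10 were tested, none rose and 5 fell, against 21.1% and 21% of all genes, the median change being -0.32 (log2). The serine carrier Sfxn1 fell to 79.2 ± 4.95 cpm in METTL7A1 from 134 ± 9.31 cpm in mock libraries (SD, n = 3 each), with a log2 value of -0.76 (SE 0.08), and remained lower than its neighbours on chromosome 13, whose median was -0.50. The glutamate carrier Slc25a22 (-0.44, SE 0.10), the glycine carrier Slc25a38 (-0.39, SE 0.11), Sfxn2 (-0.36, SE 0.10) and the branched-chain amino acid carrier Slc25a44 (-0.29, SE 0.10) also fell, though the last 3 lost their call without at least 1 library and relative to neighbours. Over the 174 other solute carrier genes tested, 28.7% rose and 18.4% fell, with a median of 0.03.

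**Figure D5:**
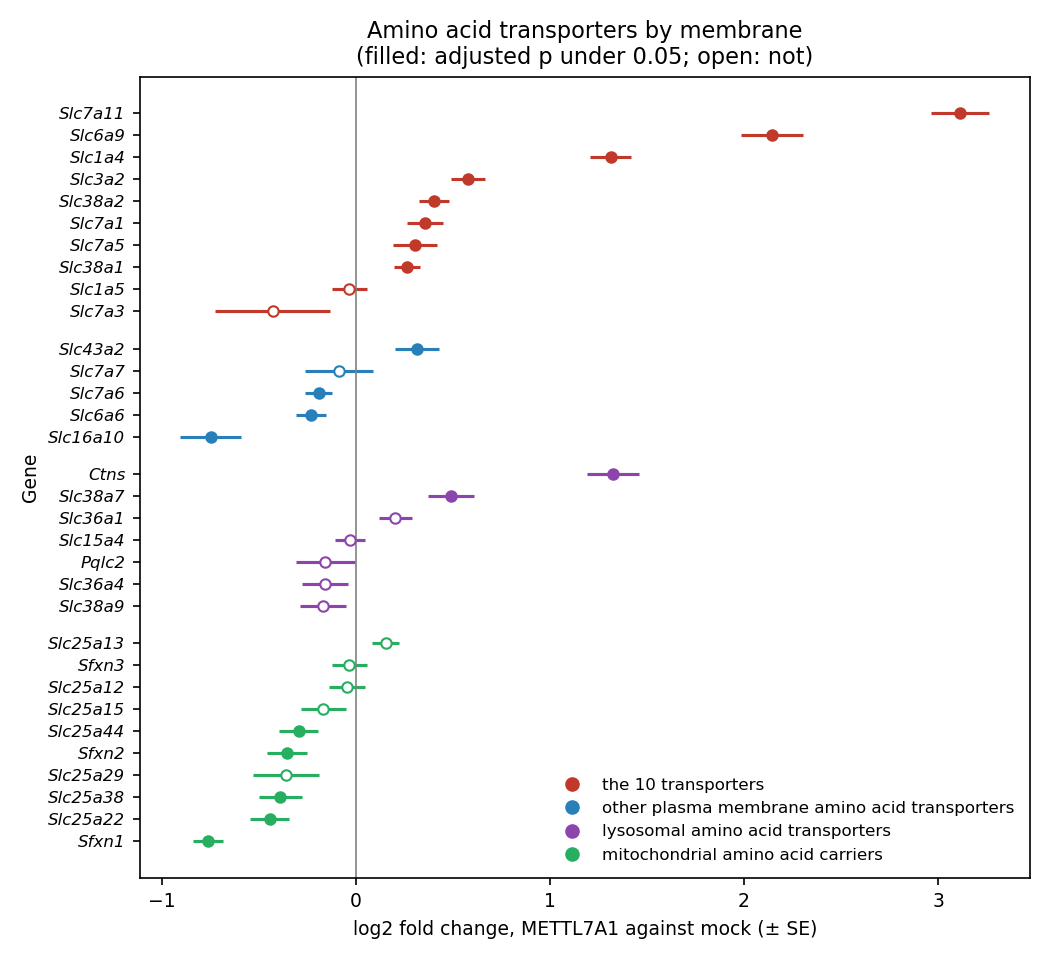
Log2 fold change of METTL7A1 against mock (points, bars are ± SE) for the 10 transporters and for the tested genes of the other plasma membrane, lysosomal and mitochondrial lists, with filled points for an adjusted p under 0.05. The 10 run from 3.11 (Slc7a11) to -0.43 (Slc7a3), the lysosomal cystine exporter Ctns stands at 1.33 and Sfxn1, at -0.76, is lowest among the mitochondrial carriers.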

How the data were processed

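Total RNA of 4T1 cells was sequenced in 6 libraries (METTL7A1 and mock, 3 each), grouped by sample title. Libraries were stranded and depleted of ribosomal RNA. The authors trimmed reads with BBDuk, aligned pairs to mm10 with STAR 2.5.3a, assigned them to Ensembl genes by featureCounts, and the deposited values are raw counts, not normalized. Per the file headers the table also holds exon length in bases, the other column used. Multi-mapping and strand settings are not given in the sources used here.

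Testing used edgeR 4.0.16 under R 4.3.3. The 13166 genes reaching 1 cpm in 3 or more libraries were kept, libraries were scaled by TMM, and METTL7A1 was compared with mock by the quasi-likelihood test without covariate, with Benjamini-Hochberg adjustment over all genes tested. A call is an adjusted p under 0.05. The study thresholds were an adjusted p under 0.01 and a log fold change over 1.5, taken as log2. SE is the log2 fold change over the square root of F. Cpm use TMM-scaled library sizes. Ratios of genes were compared by exact permutation. The test was checked on simulated counts. The p values measure the spread between these libraries, which may not reflect separate transfections.

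Members and lists were chosen with earlier results of these data known. Beside the members, at most the 6 called genes of each list with the smallest p, all light chains and neighbours on the chromosome were named. Alternatives were other scaling (RLE, upper quartile), other filters, leaving out each library in turn or the 20 most abundant genes, a block for replicate number, DESeq2 1.42.0, limma 3.58.1 voom, and an offset by the median change among the 40 nearest genes with a log2 cpm over 2.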

Additional observations from a re-analysis of the deposited data

How the results depend on the processing

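The number of members called was 8 with RLE or upper quartile scaling, without an abundance filter, with at least 10 counts in every library, without the 20 most abundant genes and with DESeq2, 7 with voom and 6 relative to chromosome neighbours. It ranged from 5 to 8 with each library left out. The members past the study thresholds numbered 2 in all these fits and were 3 with the threshold read as 1.5-fold on the linear scale. The calls of Slc7a11, Slc3a2, Slc1a4 and Slc6a9 held in all 15 alternatives.

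Of the values that turned sign, Slc1a5 was at 0.0032 without an abundance filter, 0.0055 without the 20 most abundant genes, 0.14 relative to neighbours and between -0.12 and 0.045 (0.045 without mock replicate 1 and 0.0016 without mock replicate 2) with a library left out, never called. The log2 fold change of Slc38a1 was -0.020 relative to neighbours. Slc7a6 turned from -0.19 to 0.06 relative to neighbours. Other plasma membrane transporters gave 4 calls in all libraries, 1 relative to neighbours and 1 to 3 with a library left out. Without an abundance filter the number was also 4, but only Slc16a10 was called in both fits. The log2 difference of the light chain to Slc3a2 ratio, -0.38 per kilobase, was -0.24 on counts without length. The causes were not tested. Slc7a3 was tested in 12 of the 15 alternatives, and its 20 to 34 counts limit what could be seen.

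Correlations of same-numbered deviations between the groups were -0.16, 0.23 and -0.39, without a common sign. Libraries of unlike number were not compared, so these values cannot tell whether replicate numbers pair the libraries. With the replicate block 7 members were called and 2 passed the study thresholds, and other plasma membrane transporters gave 1 call. The ratio difference of -0.38 cannot change under this block, because each replicate number holds 1 library of each group.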
